A study of Homo sapiens with 8 samples.

Results

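The imprinted DLK1-DIO3 domain of chromosome band 14q32 carries one of the largest miRNA clusters of the human genome, and 46 of its mature miRNAs were examined here out of 2549 human miRNAs with probes on the array. Membership was set by a list of mature miRNA names of the locus, which was matched to the systematic name of each probe. Names absent from the array were left out of the list beforehand, so that all 46 were on it. Mature miRNAs had been measured in INA-6, an established multiple myeloma (MM) cell line that needs interleukin-6 for growth, on 8 single-colour arrays that lay on 1 slide. Of these, 4 held RNA of cells given DMSO, the solvent, and 4 held RNA of cells given 1 μM of UNC1999, a small-molecule inhibitor of the histone methyltransferase EZH2, for 120 hours. All cells were grown with interleukin-6. The sample titles and the study's methods give DMSO as the control, whereas the treatment protocol in the labels names UNC2400, the inactive relative of UNC1999. The groups were taken from the titles. A single cell line was used, and the labels call the 4 samples of a group biological replicates.

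EZH2 is the enzyme by which Polycomb proteins methylate histones, a mark found at silent genes. In the DLK1-DIO3 domain the genes DLK1, RTL1 and DIO3 are transcribed from the paternal chromosome, and the noncoding genes MEG3, MEG8 and MEG9 together with the miRNAs from the maternal one. The miRNAs are abundant in the embryo, the placenta and the brain and low in most adult tissues, and the band that holds them also holds the immunoglobulin heavy chain locus, a frequent site of rearrangement in MM. The question addressed was which miRNAs of the domain were above background in INA-6 cells and whether the locus as a whole rose when EZH2 was inhibited.

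Of the 46 members, 45 were matched by name in the RefSeq table of GRCh38.p14, and all 45 lay between DLK1 and DIO3. hsa-miR-668-3p was not matched. The sequences below belong to the 7 miRNAs of the domain that were marked as detected on at least 1 array, since the values that follow turn on them. They are given 5′ to 3′ from RefSeq with the seed, bases 2 to 8, in capitals and the other bases in lower case.
hsa-miR-494-3p: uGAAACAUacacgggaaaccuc
hsa-miR-134-5p: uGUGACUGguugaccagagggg
hsa-miR-370-3p: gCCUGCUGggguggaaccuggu
hsa-miR-487b-3p: aAUCGUACagggucauccacuu
hsa-miR-2392: uAGGAUGGgggugagaggug
hsa-miR-1185-1-3p: aUAUACAGggggagacucuuau
hsa-miR-1185-2-3p: aUAUACAGggggagacucucau

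All 7 were on the plus strand. In GRCh38.p14, miR-494-3p lay at chr14:101029681-101029702 and miR-134-5p at chr14:101054694-101054715. miR-370-3p lay nearer to DLK1, at chr14:100911186-100911207, and miR-487b-3p lay at chr14:101046505-101046526. miR-2392, from MIR2392, the miRNA gene of the interval nearest to DLK1, lay at chr14:100814551-100814570. miR-1185-1-3p at chr14:101043029-101043050 and miR-1185-2-3p at chr14:101044250-101044271 came from neighbouring genes.

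No member shared its seed with miR-494-3p, miR-134-5p, miR-370-3p or miR-487b-3p. Among all human mature miRNAs in the RefSeq table the seed of miR-134-5p was found in 1 other, miR-3118, which was detected on 0 arrays. Those of miR-494-3p, miR-370-3p and miR-487b-3p were found in 0 others. The detected members therefore had 4 different seeds. miR-1185-1-3p and miR-1185-2-3p shared a seed and differed by a single substitution, U20C, counted from 1 at the 5′ end with the base of miR-1185-1-3p first. Their probes may read each other's miRNA, and the separate values of this pair are uncertain. The members detected on no array had a median GC content of 45.5%, ranging from 23.8 to 70.0%. miR-494-3p and miR-487b-3p had a GC content of 45.5% each, miR-134-5p of 59.1% and miR-370-3p of 68.2%.

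Each array held 53144 spots, and each detected member was read by 2 probes of 10 spots each. The deposited spot intensities come after background subtraction and before any normalization. Outlier spots were dropped, the remaining spots were averaged per probe and the probes summed per miRNA. Arrays were then scaled to a common 75th percentile, taken over the 346 miRNAs with detection on all 8 arrays, which gives the scaled signal used below. Detection is the mark that the scanner software gives to a miRNA on an array. Precision is limited by the number of arrays, since 4 against 4 arrays cannot give a two-sided p below 0.0286 in an exact permutation test.

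The DMSO arrays were not alike in depth. DMSO replicates 1 to 4 had 482, 369, 370 and 484 detected miRNAs, and for the UNC1999 replicates these numbers were 500, 498, 491 and 474. The UNC1999 arrays were also brighter on average, with a 75th percentile before scaling of 419 ± 119 after DMSO and 664 ± 88.4 after UNC1999 treatment (SD, n = 4 arrays each). The lowest scaled signal of any detected miRNA was 17.6 in DMSO replicate 2 and 23.1 in DMSO replicate 3, and it lay between 6.21 and 10.2 on the other 6 arrays. A dim miRNA could thus miss the detection mark in these replicates at a level that was marked elsewhere. The deviations from the group means, over the 346 miRNAs detected on all arrays, also paired DMSO replicates 1 and 4 (r = 0.76, across miRNAs), DMSO replicates 2 and 3 (r = 0.51), UNC1999 replicates 1 and 3 (r = 0.63) and UNC1999 replicates 2 and 4 (r = 0.48). What the arrays of a pair had in common was not tested, and p-values measure the spread between these 8 arrays. The results are given below with and without DMSO replicates 2 and 3 where these decide a value.

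Most of the cluster was not above background with or without the inhibitor. Of the 46 members, 42 were detected on no array, which is 91.3%, against 77.7% of all human miRNAs. Only miR-494-3p and miR-134-5p were detected on all 8 arrays. miR-370-3p was detected on 0 of 4 DMSO and 4 of 4 UNC1999 arrays. miR-487b-3p was detected in DMSO replicate 4 alone. In all, 1 member went from no DMSO array to every UNC1999 array, and 20 of the 2549 human miRNAs did so, while 0 went from every DMSO array to no UNC1999 array. The part of the brighter UNC1999 arrays in this was not tested. The plot of detection along the locus shows how far apart the detected miRNAs lay.

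**Figure D1:**
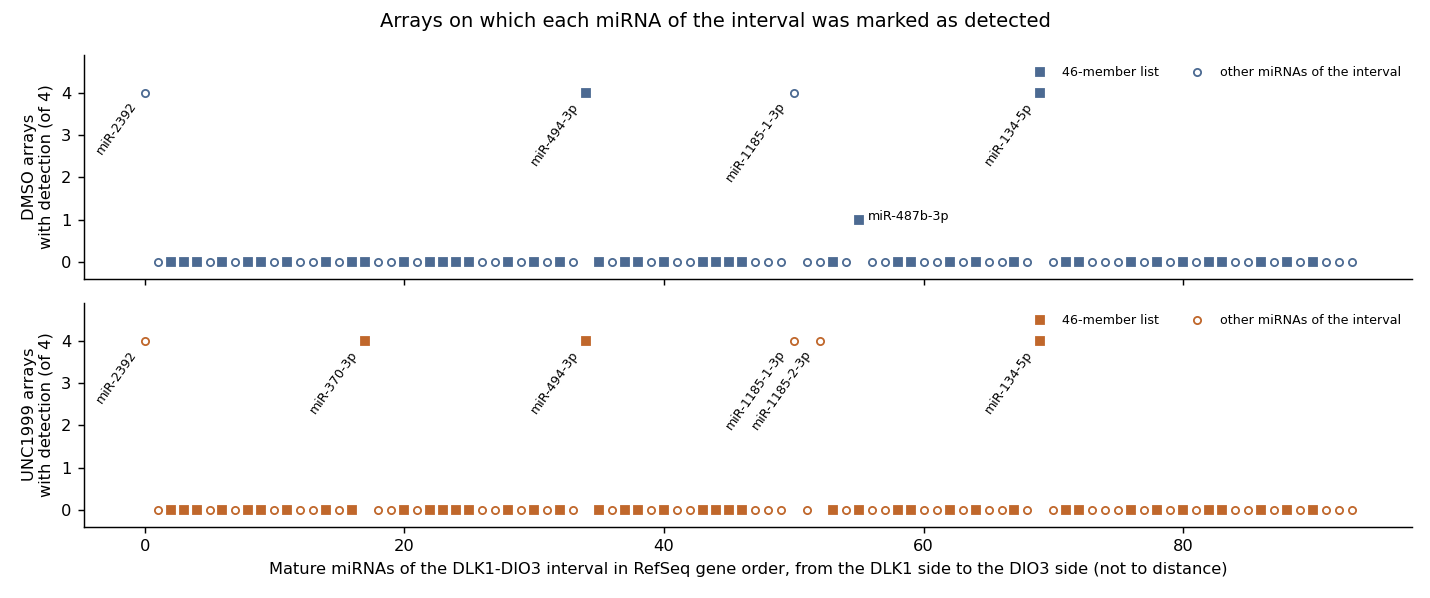
Number of DMSO arrays (upper panel) and UNC1999 arrays (lower panel), of 4 each, on which a mature miRNA was marked as detected, for the 94 listed miRNAs of the interval that were matched by name, in RefSeq gene order from the DLK1 side to the DIO3 side and not to distance. Filled squares are members and open circles are other miRNAs of the interval, and 87 of the 94 stood at 0 in both panels.

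The detected miRNAs did not sit side by side along the locus. The interval holds 54 miRNA genes in the RefSeq annotation, and 7 of them had a detected mature miRNA. MIR494 is flanked by MIR329-2 and MIR1193, MIR134 by MIR382 and MIR668, and MIR370 by MIR136 and MIR379. The listed mature miRNAs of these flanking genes were detected on 0 of 8 arrays. Among the detected genes only MIR1185-1 and MIR1185-2 were direct neighbours. The opposite arms of the detected members, miR-494-5p, miR-134-3p, miR-370-5p and miR-487b-5p, were also detected on 0 of 8 arrays. The scaled signal of miR-494-5p ranged from 0.754 to 7.58 over the 8 arrays.

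Most of the members without detection lay near 0 in both groups. Before scaling, the median intensity of these 42 miRNAs was 0.617, 0.449, 0.978 and 0.671 in DMSO replicates 1 to 4. It was 0.0909, -0.750, -1.30 and 0.979 on the UNC1999 arrays, in the same order of replicates. The 2 groups overlapped, and between 16 and 24 of the 42 values on an array were below 0. The median of the 1980 human miRNAs that were detected on no array lay between -2.01 and -0.503. Of the 336 scaled values of these members, 22 were above the floor of 8.98 that is described below. After DMSO, replicates 1 to 4 gave 2, 4, 7 and 2 such values, most of them from replicates 2 and 3, and the UNC1999 replicates gave 2, 2, 0 and 3. The transcripts of MEG3, MEG8, RTL1 and DIO3 were not analysed here.

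**Figure D2:**
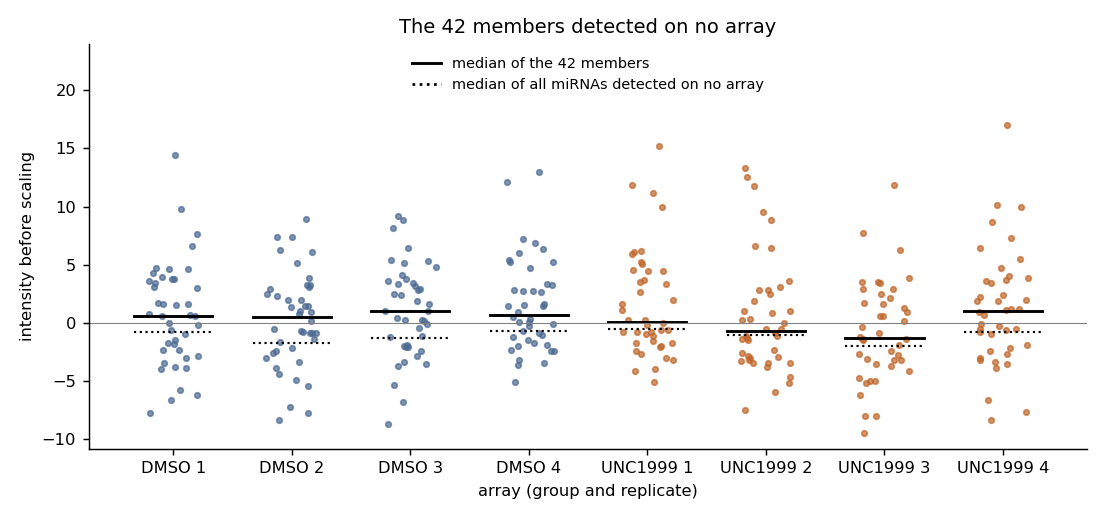
Intensity before scaling (vertical axis, arbitrary units of the scanner) of the 42 members that were detected on no array, 1 point per miRNA, for each of the 8 arrays. Solid lines mark their median and dotted lines the median of the 1980 human miRNAs detected on no array, and the members' medians lay between -1.30 and 0.979 on every array.

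Of the members that were never detected, miR-665, miR-337-3p and miR-654-5p had the highest mean scaled signals over the 8 arrays. miR-665 stood at 15.8, 8.98, 9.31 and 12.1 on the DMSO arrays and at 11.5, 9.76, 8.42 and 16.5 on the UNC1999 arrays, both in the order of replicates. In DMSO replicates 1 and 4 and on every UNC1999 array it exceeded the lowest detected signal of the array without being marked. For miR-337-3p the scaled signals ranged from 6.71 to 13.2 on DMSO arrays and from 2.50 to 8.37 on UNC1999 arrays. miR-654-5p ranged from 1.78 to 11.2 after DMSO and from 5.46 to 9.66 after UNC1999 treatment. For each of the 3 the values of the groups overlapped. In a count added after the data were seen, 2 of the 42 undetected members had every scaled UNC1999 signal below every DMSO one, as had 6.06% of the 1980 undetected human miRNAs, and 1 had them all above, as had 7.58%. Of the 2, miR-299-5p, ranked 5 by mean signal, ranged from 5.60 to 14.2 after DMSO and from -0.50 to 2.63 after UNC1999 treatment, and miR-411-5p was below 4 on all arrays. The 1 that was above, miR-487a-3p, was below 0 on all arrays, and before scaling its groups overlapped. In the same count before scaling, 3 undetected members were below and 0 above, beside 60 and 91 of the 1980 undetected human miRNAs.

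For the tests, a floor of 8.98 was set for the scaled signals before log2 was taken. It is the lowest detected scaled signal of an array, as a median of the 8 arrays. The test, limma's moderated one, covered the 456 human miRNAs that had the detection mark on every array of DMSO, of UNC1999 or of both. Calls required an adjusted p (Benjamini-Hochberg) of 0.05 or less together with a 1.2-fold change or more. Of the 46 members, 3 passed this filter (6.52%), against 17.9% of all human miRNAs. miR-370-3p passed through the UNC1999 arrays alone, the group where it was high, so that its call carries no weight in a count. miR-134-5p was called higher after UNC1999 treatment, as was miR-370-3p, where 36.0% of all tested miRNAs were. Under normexp background correction, which here adds a constant of 50 to each spot, neither call held. In a fit without the detection filter miR-134-5p was the 1 member of 46 called higher, where 2.79% of all miRNAs were. None was called lower in the fit described, where 34.6% of all tested miRNAs were. Nothing particular to the locus is read from 3 members or from the values that follow, to which miR-370-3p also contributes. Their median change was 0.60 on the log2 scale, beside 0.011 for all 456 tested miRNAs. For 2 of the 3 every UNC1999 value was above every DMSO value, as it was for 32.7% of all tested miRNAs.

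**Figure D3:**
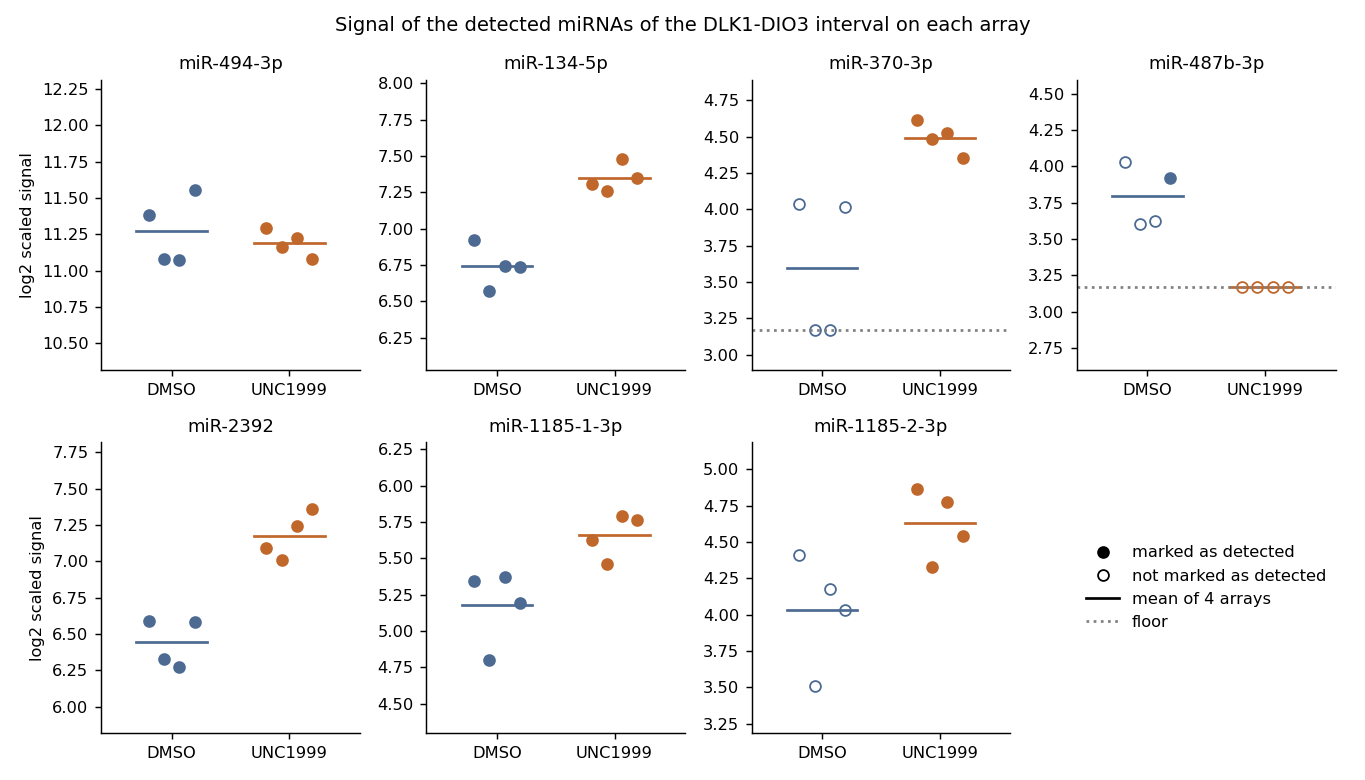
Log2 scaled signal (vertical axes, each with its own range) on the 4 DMSO and 4 UNC1999 arrays for the 4 detected members (upper row) and for 3 other detected miRNAs of the interval (lower row), with replicates 1 to 4 from left to right. Filled points were marked as detected, open points were not, bars are means of 4 arrays and the dotted line is the floor. The UNC1999 values of miR-134-5p, miR-370-3p, miR-2392 and miR-1185-1-3p all lay above their DMSO values, those of miR-494-3p overlapped them, and those of miR-487b-3p lay at the floor.

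miR-134-5p, known for limiting the size of dendritic spines in neurons, was the member with the clearest rise. Its scaled signal on the DMSO arrays, listed from replicate 1, was 121, 95.1, 107 and 107, and on the UNC1999 arrays it was 159, 153, 178 and 163. Every UNC1999 array was above every DMSO array, and the lowest UNC1999 value exceeded the highest DMSO value by more than the range within either group. On the log2 scale the means were 6.74 ± 0.14 and 7.35 ± 0.09 (SD, n = 4 arrays each). This is a log2 fold change of 0.60 with a standard error of 0.10 (adjusted p = 9.2e-04 by limma), or a 1.52-fold rise, and the exact permutation test, two-sided, gave p = 0.0286. In bulk samples such as these, a change in the number of cells that hold a miRNA and a change in its amount per cell cannot be told apart.

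Both probes of miR-134-5p showed this rise. Probe 1 gave a mean scaled intensity of 52.9 after DMSO and 80.9 after UNC1999 treatment. Probe 2 gave 54.7 and 82.4. For each probe the 4 values of the groups did not overlap (exact permutation test, two-sided, p = 0.0286). The slide had 2 rows of arrays. The DMSO mean of 3 arrays and the single UNC1999 array in row 1 differed by 0.60 on the log2 scale, and the single DMSO array and the mean of 3 UNC1999 arrays in row 2 by 0.61. Without DMSO replicates 2 and 3, a comparison chosen after the data were seen, the log2 fold change was 0.52 (limma adjusted p = 0.00404). With normexp background correction it was 0.11 and was not called (limma adjusted p = 0.309). The median of all tested miRNAs was then -0.29, so that miR-134-5p lay 0.41 above it. Its log2 fold change was 1.30 without scaling and 1.36 with the spike-in RNAs, which was 0.63 and 0.64 above the median of all tested miRNAs.

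**Figure D4:**
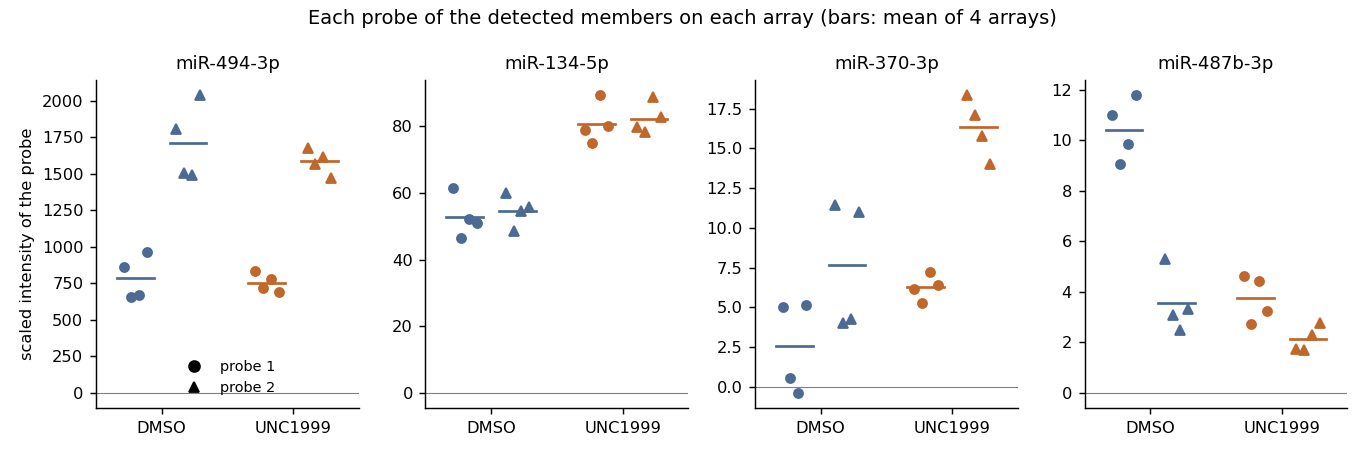
Scaled intensity of each probe (vertical axes, each with its own range) of the 4 detected members on the 4 DMSO and 4 UNC1999 arrays, with circles for probe 1, triangles for probe 2 and bars for the mean of 4 arrays. Both probes of miR-134-5p rose, from 52.9 to 80.9 and from 54.7 to 82.4. The scaled values of miR-487b-3p were lower after UNC1999 treatment without overlap in probe 1, whose groups overlapped before scaling.

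miR-370-3p, whose gene lies alone between MIR136 and MIR379, was close to the limit of detection. Its scaled signal was 16.5, 4.59, 3.85 and 16.2 on the DMSO arrays and 24.6, 22.3, 23.0 and 20.4 on the UNC1999 arrays, each from replicate 1 to 4. The UNC1999 values were all above the DMSO values, and the DMSO values fell into a pair near 16 and a pair below the floor, the latter in replicates 2 and 3. The log2 means were 3.60 ± 0.50 and 4.49 ± 0.11 (SD, n = 4 arrays each). The fitted log2 fold change was 0.90 with a standard error of 0.21 (limma adjusted p = 0.00386), and it is set in part by the floor. With a floor at 0.1 of the one used it was 1.44, and with the sum that the scanner software writes 1.49. Because miR-370-3p passed the filter through the group where it was high, its p-values are descriptions and give no support to a rise. For a low estimate under this scaling, each DMSO array was given its lowest detected signal or that of miR-370-3p itself, whichever was higher. The signal after UNC1999 treatment was then 1.24-fold higher. This ratio rests on the same detection marks that selected miR-370-3p, was not tested and gives no support to a rise. In DMSO replicates 1 and 4 its signal exceeded the lowest detected signals of 8.43 and 8.62 without being marked. In DMSO replicate 3 the lowest detected signal of 23.1 was above 3 of its 4 UNC1999 values.

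The size of this difference rested on DMSO replicates 2 and 3. Without them the log2 fold change of miR-370-3p was 0.47 (standard error 0.10, limma adjusted p = 0.00537). Within row 1 of the slide the difference was 0.61, and within row 2, where DMSO replicate 3 was the single control, it was 1.37. Probe 2 carried most of the signal, with mean scaled intensities of 7.68 and 16.3. Probe 1 gave 2.59 and 6.26, and neither probe had overlapping groups. All probe 1 values, from -0.39 to 5.15 after DMSO and 5.26 to 7.21 after UNC1999 treatment, lay below the floor set for summed signals. The p-values in this paragraph are likewise descriptions, since miR-370-3p passed the filter through its UNC1999 arrays alone. In probe 2 the same spot was the brightest of the 10 on all 8 arrays, at 24.2 to 92.7 before scaling, and it was marked as an outlier on 7 of them and kept in UNC1999 replicate 4. In normexp background correction the constant of 50 exceeded the mean intensities of both probes, and its part in the result was not tested. The log2 fold change was then -0.27 and was not called (limma adjusted p = 0.0559). It lay 0.017 above the median of all tested miRNAs. With no filter on detection it was not called either (limma adjusted p = 0.104). In the authors' processed values, where undetected miRNAs are set to a low constant, it was 3.56.

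miR-494-3p, detected on all 8 arrays like miR-134-5p, showed no called change. Its scaled signal was 2673, 2162, 2157 and 3004 in the DMSO samples and 2509, 2288, 2397 and 2164 in the UNC1999 samples, ordered by replicate. The groups overlapped, and the DMSO arrays split into replicates 1 and 4 at the top of all 8 values and replicates 2 and 3 at the bottom. The log2 fold change was -0.08 with a 95% confidence interval from -0.36 to 0.20 (adjusted p = 0.557 by limma, standard error 0.13). Under this scaling, rises above 0.20, such as that of miR-134-5p, and falls beyond -0.36 lie outside the interval, and changes within it are not excluded. Probes 1 and 2 changed by -0.05 and -0.10 on the log2 scale, with overlapping groups. Without DMSO replicates 2 and 3 the difference was -0.28 and miR-494-3p was called lower (limma adjusted p = 0.0424). Scaled to the spike-in RNAs added by the maker's kit, it was 0.68 and called higher (limma adjusted p = 0.0340), when the median of all tested miRNAs was 0.72. Relative to that median it was therefore -0.05. Over all settings its adjusted p ranged from 0.0340 to 0.941.

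Ratios within an array do not depend on the scaling, and the ratio of miR-134-5p to miR-494-3p was taken after their values were seen. The log2 ratio was -4.46, -4.51, -4.33 and -4.82 on DMSO arrays 1 to 4 and -3.98, -3.90, -3.75 and -3.73 on UNC1999 arrays 1 to 4. All 4 UNC1999 ratios were above all 4 DMSO ratios. The mean moved from -4.53 ± 0.20 to -3.84 ± 0.12 (SD, n = 4), a difference of 0.69, which restates the 2 fold changes and is given as a description. It was not kept under another background correction, since with normexp the log2 fold changes of miR-134-5p and miR-494-3p were 0.11 and 0.10. Which of the 2 moved is not shown by a ratio.

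miR-487b-3p, which lies between the genes MIR381 and MIR539, had lower scaled signals after UNC1999 treatment. Its scaled signal after DMSO was 16.3, 12.2, 12.3 and 15.1 from replicate 1 to replicate 4, of which replicate 4 alone was marked as detected. After UNC1999 treatment it lay between 4.43 and 6.76 on the 4 arrays, all below the floor. After scaling the groups did not overlap (exact permutation test, two-sided, p = 0.0286). Before scaling the groups overlapped, with values from 7.05 to 16.3 after DMSO and from 6.06 to 9.51 after UNC1999 treatment. In DMSO replicates 2 and 3 its scaled signal lay below the lowest detected signals of 17.6 and 23.1. miR-487b-3p did not pass the filter. In the fit without a filter, which covers all 2549 human miRNAs, its log2 fold change was -0.63 (limma adjusted p = 0.0223) and it was the 1 member called lower, where 4.86% of all miRNAs were. Under this scaling the value is understated, because all 4 UNC1999 values stand at the floor. They then show no spread, so that this limma p-value does not measure the spread between the UNC1999 arrays. Probe 1 fell from a mean scaled intensity of 10.4 to 3.76 without overlap, and probe 2 changed from 3.55 to 2.13 with overlapping groups. Before scaling, the groups overlapped in probe 1 as well.

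Further mature miRNAs of the interval that are not among the 46 members were listed for comparison, 49 in number. Of these, 46 were detected on no array and 3 passed the filter, miR-2392, miR-1185-1-3p and, through the UNC1999 arrays alone, miR-1185-2-3p, whose call thus carries no weight in a count. Each was called higher, beside 36.0% of all tested miRNAs, and without the detection filter miR-2392 alone of these was called. The scaled signal of miR-2392 was 96.1, 80.4, 77.5 and 95.9 after DMSO and 136, 129, 151 and 164 after UNC1999 treatment. These values did not overlap, and its log2 fold change was 0.73 with a standard error of 0.12 (adjusted p = 6.3e-04 by limma). Both of its probes rose, by 0.78 and 0.71 on the log2 scale. With normexp background correction it was not called, at 0.11.

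The scaled signal of miR-1185-1-3p was 40.6, 27.9, 41.3 and 36.5 on the DMSO arrays and 49.4, 44.0, 55.5 and 54.4 on the UNC1999 arrays. Its groups did not overlap, and its log2 fold change was 0.48 with a standard error of 0.14 (adjusted p = 0.0115 by limma). It was not called with alike pairs of arrays averaged (limma adjusted p = 0.0744) or without the detection filter (limma adjusted p = 0.134). Probe 1 rose by 0.80 on the log2 scale, and probe 2 differed by 0.29 with overlapping groups. miR-1185-2-3p, which differs from it by the U20C substitution, was detected on 0 of 4 DMSO and 4 of 4 UNC1999 arrays. Its fitted log2 fold change was 0.60 with a standard error of 0.19 (limma adjusted p = 0.0176), although the values of the groups overlapped (p = 0.0571 in the two-sided exact permutation test). By the low estimate made as for miR-370-3p, miR-1185-2-3p was 1.27-fold higher, which was not tested and gives no support to a rise. It was not called without DMSO replicates 2 and 3, at 0.41 (limma adjusted p = 0.0678), without the detection filter (limma adjusted p = 0.235), with slide row as a block, at 0.52 (limma adjusted p = 0.0691), with alike pairs averaged (limma adjusted p = 0.0644) or without UNC1999 replicate 1 (limma adjusted p = 0.0509). The value of miR-1185-2-3p also moved upward, to 1.66 with the sum that the scanner software writes, 1.18 without scaling, 1.24 with the spike-in RNAs and 4.18 in the authors' processed values. With normexp background correction both were below 0, at -0.22 for miR-1185-1-3p and -0.30 for miR-1185-2-3p. The third product of these genes, miR-1185-5p, was detected on 0 arrays.

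In the same band but outside the imprinted interval, 6 mature miRNAs were listed and 2 passed the filter. miR-342-3p, from an intron of EVL, was detected on all 8 arrays and changed by -0.11 on the log2 scale with a 95% confidence interval from -0.33 to 0.12 (limma adjusted p = 0.367). Scaled to the spike-in RNAs it was called higher, at 0.65 (limma adjusted p = 0.0169), below the median of all tested miRNAs. miR-345-5p was detected on 2 of 4 DMSO and 4 of 4 UNC1999 arrays. Its scaled signal was 46.6, 12.9, 18.8 and 41.1 after DMSO and 54.3, 43.3, 53.6 and 41.8 after UNC1999 treatment, and the groups overlapped. It passed the filter through the UNC1999 arrays alone, the group where it was higher, so that its call carries no weight. Its log2 fold change was 0.88 (limma adjusted p = 0.0473), was not called without the detection filter (limma adjusted p = 0.365) and was 0.13 without DMSO replicates 2 and 3 (limma adjusted p = 0.417). With normexp background correction it was called lower, at -0.34 (limma adjusted p = 0.0276).

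The cells were compared with lists of miRNAs for several cell types. All 7 miRNAs listed for B cells and plasma cell lines were detected on at least 1 array, and miR-155-5p was the 1 of them that did not pass the filter. This list also holds miR-16-5p, miR-17-5p and miR-21-5p, which are not particular to B cells, so that its detection does not establish identity. Of the erythroid (4 listed), endothelial (2), stromal or fibroblast (6), epithelial (6), liver (1) and muscle (4) markers, 0 were detected on any array. Of 4 neuronal markers, miR-9-5p and miR-9-3p were detected on all 8 arrays, and miR-124-3p and miR-129-5p on none. miR-9-5p was called lower, at -0.88 (limma adjusted p = 0.00523), and the summed signal of the neuronal list was 180 ± 41.6 after DMSO and 124 ± 17.3 after UNC1999 treatment (SD, n = 4). Of 2 myeloid markers, miR-223-5p was detected on no array and miR-223-3p on all 8. The scaled signal of miR-223-3p was 35.7, 40.9, 44.5 and 32.2 after DMSO and 77.1, 117, 62.7 and 97.7 on the UNC1999 arrays, which makes a log2 fold change of 1.18 (adjusted p = 5.7e-04 by limma). The summed signal of the B cell list was 22559 ± 2453 after DMSO and 15396 ± 1420 after UNC1999 treatment (SD, n = 4), with 5 of the 6 tested called lower, where 34.6% of all tested miRNAs were. The brightest of the list after DMSO were miR-17-5p and miR-16-5p, with log2 means of 12.83 and 12.60, so this sum is not one of B cell miRNAs alone. Of all tested miRNAs only 4 were called lower without scaling and 7 with the spike-in RNAs. Within the list miR-21-5p had log2 means of 11.77 and 11.76, and miR-155-5p, which was detected on 0 of 4 DMSO and 2 of 4 UNC1999 arrays and not tested, of 3.68 and 4.17. Any part of these shifts in the values of the members was not tested.

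**Figure D5:**
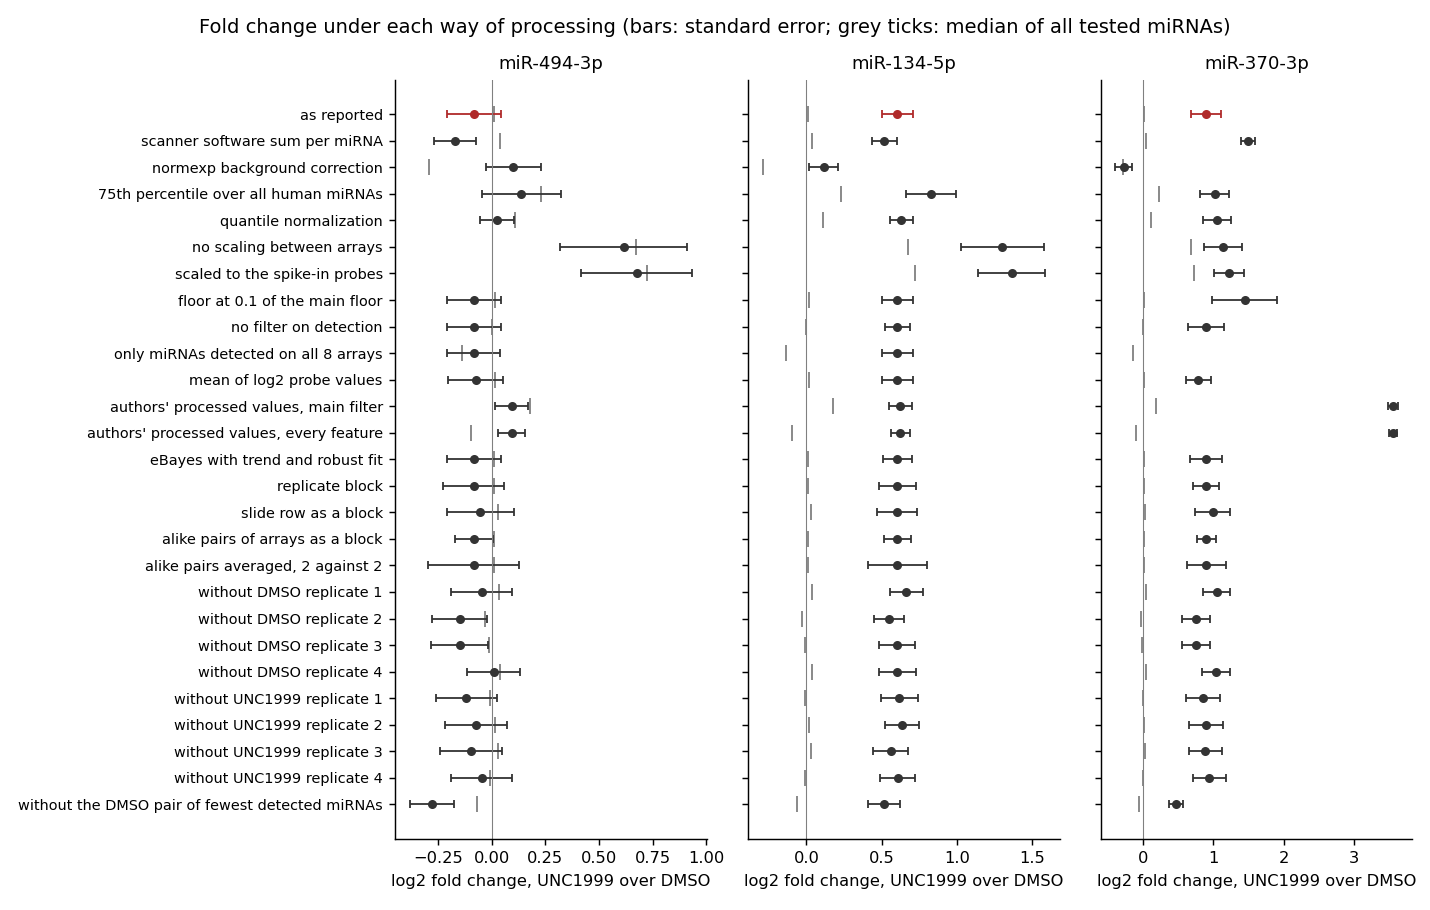
Log2 fold change of UNC1999 over DMSO (horizontal axes) with its standard error for the 3 members that passed the filter, under each way of processing the arrays (vertical axis), with the reported value in red and a grey tick at the median of all tested miRNAs under the same setting. miR-134-5p lay above that median throughout, by 0.41 to 0.74, miR-370-3p by 0.017 to 3.65, and miR-494-3p stayed between -0.21 and 0.39 of it.

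The direction of a change relative to 0 depended on the scaling and on the background correction, and the plot of fold changes under each setting gives it beside the median of all tested miRNAs. Of the 322 called miRNAs, 164 were higher, against 192 of 280 with the percentile taken over all human miRNAs, 54 of 284 with normexp, 234 of 238 without scaling and 274 of 281 with the spike-in RNAs. The median of all tested miRNAs was 0.23, -0.29, 0.67 and 0.72 under these, in the same order. miR-134-5p was above that median under all 29 alternatives, some of which change only the error or the threshold and leave the value as it is. miR-494-3p was above it under 3 of 29.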

How the data were processed

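The authors deposited the scanner output of 8 arrays, made with Agilent Feature Extraction 10.7.3.1 as the submitters' processing notes and file headers state, with a background-subtracted intensity per spot, and a table of quantile-normalized log2 values that holds 38 of the 46 members. From the intensities, probe means without outlier spots (1392 to 2292 per array) were summed per miRNA, scaled, floored and log2 transformed as described. Fits were made in R 4.3.3 with limma 3.58.1 (lmFit, eBayes) and no block, with Benjamini-Hochberg adjustment over all miRNAs tested, and single values used exact permutation tests. The fit was checked on simulated data. The files name hg19, and coordinates were taken with the sequences from RefSeq (GRCh38.p14). Among the 49 further miRNAs all were matched by name.

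The members and lists were chosen with earlier results of these data known. Named were all listed miRNAs of the band detected on at least 1 array and the 3 brightest undetected members. Sequences were to be those of the members that passed the filter, and those of the other detected miRNAs of the interval were added after their values were seen. Alternatives were normexp (offset 50), the sum per miRNA that the scanner software writes, a lower floor (0.1 of the one used), other scalings and filters, log2 probe values averaged instead of probes summed, the authors' processed values, an intensity trend with robust variances, a block by replicate number, by slide row or by alike pairs, alike pairs averaged, each array left out, no fold threshold and a paired t-test by replicate number, which the methods name for statistics in general and not for the arrays. Leaving out DMSO replicates 2 and 3 was added after seeing the data. With 1 slide for all arrays, no block by slide could be made.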

Additional observations from a re-analysis of the deposited data

How the results depend on the processing

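miR-370-3p passed the filter only through the UNC1999 arrays, so that its call adds no weight to any count here. Between 292 and 326 miRNAs were called with each array left out, of the members miR-134-5p and miR-370-3p higher and 0 lower each time. Against 322 in the reported fit, 195 were called with no filter on detection, 206 when all features of the authors' processed table were tested, 156 with alike pairs averaged, which leaves 2 samples a group, and 152 with a paired t-test by replicate number after adjustment (236 at the unadjusted threshold), which the methods name in general, the arrays having a moderated test. Members called higher, 2 as reported with miR-370-3p, where 36.0% of all tested miRNAs were, numbered 1 with no filter (71 of 2549 over all miRNAs), 1 among miRNAs detected on all 8 arrays (109 of 346), where miR-370-3p, miR-1185-2-3p and miR-345-5p have no value, and 1 with the adjusted paired test (65 of 456), miR-134-5p each time, 0 with normexp (54 of 456) and 3 with the spike-in RNAs (274 of 456), where miR-494-3p was added. Members called lower, 0 as reported, numbered 1 with no filter (miR-487b-3p, beside 124 of 2549) and 1 without DMSO replicates 2 and 3 (miR-494-3p, beside 162 of 456), the latter setting chosen after seeing the data.

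Deviations of same-numbered arrays correlated at 0.24, 0.38, -0.46 and -0.46. The alike pairs of arrays enter these values too, so they do not decide whether replicate numbers pair the samples. With the replicate number as a block 308 miRNAs were called, of the members miR-134-5p and miR-370-3p higher and 0 lower.

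With normexp, log2 fold changes were -0.27 for miR-370-3p, -0.22 for miR-1185-1-3p, -0.30 for miR-1185-2-3p, -0.34 for miR-345-5p (called lower, limma adjusted p = 0.0276) and 0.10 for miR-494-3p. miR-494-3p was also above 0 with a percentile over all human miRNAs (0.14), quantile normalization (0.025), no scaling (0.61), the spike-in RNAs (0.68) and both fits of the authors' processed values (0.093 each), and its range with each array left out was -0.15 to 0.011, the last without DMSO replicate 4. miR-342-3p was at 0.12 with a percentile over all human miRNAs, 0.59 without scaling and 0.65 with the spike-in RNAs (called higher, limma adjusted p = 0.0169). The cause of these changes was not tested. The normexp constant of 50 per spot exceeded the mean scaled probe intensities of miR-370-3p, miR-1185-1-3p, miR-1185-2-3p and miR-345-5p. Beside these reversals the call of miR-345-5p was lost under 17 of 28 alternatives, that of miR-1185-2-3p under 5 and that of miR-1185-1-3p under 2, averaged pairs and no filter. miR-134-5p lost its call with normexp alone, although some of the 29 alternatives, such as no fold threshold, could not cost a call. Signals near the floor limit all members but miR-494-3p and miR-134-5p.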
